A study of Mus musculus with 19 samples.

Results

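Genes of iron uptake, storage and export were followed in RNA from the crypts of the small intestine of 19 mice. The set held 9 genes, taken by name from the 55487 genes listed in the files: Cybrd1, Slc11a2 and Tfrc for uptake, Fth1 and Ftl1 for storage, Heph and Slc40a1 for export, Hmox1 for the breakdown of haem, and Epas1, a transcription factor subunit that acts on several of them. No expression value was used to choose them, although results of these data were known when they were chosen. Of the 9 genes, 8 passed the filter on low counts and were tested, and Hmox1 was too low.

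The mice were C57BL/6 adults of both sexes that either had the neurotensin gene (Nt+/+) or lacked it in the whole body (Nt-/-). Neurotensin is a gut hormone released after a meal, and the study compared crypts of mice fed standard chow ad libitum (AL) with crypts of mice fasted for 48 hours. There were 5 AL Nt+/+, 4 AL Nt-/-, 5 fasted Nt+/+ and 5 fasted Nt-/- mice, with 1 library per mouse from crypts freed with EDTA from the small intestine, its distal end left out. Controls were littermates. The study describes its Nt+/+ and Nt-/- mice as Lgr5-EGFP mice (Lgr5-EGFP-IRES-CreERT2, a reporter and Cre at a stem cell gene), while its methods also list lines without that allele and the labels of these samples do not mention it.

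Dietary iron is reduced at the brush border of duodenal enterocytes by the ferric reductase Cybrd1 and carried in as ferrous iron by Slc11a2 (DMT1). Inside the cell it is stored in ferritin, a shell of heavy (Fth1) and light (Ftl1) chains, or leaves at the basolateral side through ferroportin (Slc40a1), the only known iron exporter of mammals, helped by the ferroxidase hephaestin (Heph). Dividing crypt cells take up iron bound to transferrin through the transferrin receptor (Tfrc). Much of the control lies after transcription: iron regulatory proteins bind a hairpin called the iron-responsive element, which holds back translation when it lies in a 5′ untranslated region (UTR) and protects the mRNA from decay when it lies in a 3′ UTR.

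That hairpin was looked for in the UTRs of all coding genes, since mRNA levels alone do not give the protein output of a member that carries it. The search used the transcript strand alone and read, in order, an unpaired C, 5 bases of any kind, the loop CAGTGN and 5 bases that pair with the first 5 (G with T allowed). In the GENCODE transcripts of GRCm38, matches were found in 3 members in the 5′ UTR and in 1 member, Tfrc, in the 3′ UTR, where there were 4. Each site is printed 5′ to 3′ on the transcript strand with the loop in capitals.
Fth1 5′ UTR, chr19:9982731-9982760, forward strand: tttcctgcttcaaCAGTGCttgaacggaac
Ftl1 5′ UTR, chr7:45459779-45459808, reverse strand: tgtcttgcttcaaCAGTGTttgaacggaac
Slc40a1 5′ UTR, chr1:45925465-45925494, reverse strand: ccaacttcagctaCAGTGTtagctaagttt
Tfrc 3′ UTR, chr16:32631218-32631247, forward strand: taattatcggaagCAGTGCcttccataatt
Tfrc 3′ UTR, chr16:32631597-32631626, forward strand: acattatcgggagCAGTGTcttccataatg
Tfrc 3′ UTR, chr16:32631662-32631691, forward strand: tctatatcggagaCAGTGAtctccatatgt
Tfrc 3′ UTR, chr16:32631709-32631738, forward strand: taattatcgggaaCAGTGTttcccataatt

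Over all coding genes, 31 of 20916 (0.148%) held such a match in the 5′ UTR and 129 of 21045 (0.613%) in the 3′ UTR. The sites were not in every transcript form: the match was in 4 of 5 coding transcripts of Fth1, 1 of 2 of Ftl1, 1 of 4 of Slc40a1 and, for the 3′ UTR of Tfrc, 1 of 2. The counts used below are sums over all forms of a gene, so that forms with and without the hairpin were not separated. Cybrd1, Slc11a2, Heph, Hmox1 and Epas1 held no match, which says only that these letters were not in their annotated UTRs. A hairpin with another loop or with an unpaired base in the stem would be missed, so these genes are not shown to lack the element.

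The targeted gene, Nts, which encodes neurotensin, stood at 6.74 to 8.58 CPM (counts scaled to a common library size) in AL Nt+/+ mice and at 4.97 to 5.70 CPM in fasted Nt+/+ mice, against at most 0.79 CPM in any Nt-/- mouse. Replicate 5 of the fasted Nt+/+ group carries an Nt-/- label beside its Nt+/+ title, was grouped by its title, and had 5.43 CPM of Nts. The libraries held 9059418 to 35068669 counts. In 1 of them, AL Nt+/+ replicate 1, a single gene took 11.6% of the counts, against 1.66% to 2.94% for the top gene of any other mouse. Epithelial markers (Epcam, Vil1, Cdx1, Cdh1) summed to 3088 to 4093 CPM, and markers of the proximal small intestine (Pdx1, Gata4, Onecut2) summed to 168 to 284 CPM against 0.796 to 17.8 CPM for ileal markers. Of the proximal markers, Pdx1 was too low to test (0.058 to 0.394 CPM), so that the sum rests on Gata4 and Onecut2. Among markers of other lineages, 7 macrophage markers summed to 2.93 to 5.84 CPM 5 endothelial markers to 2.66 to 5.13 CPM and 4 T cell markers to 28.0 to 157 CPM, and Adgre1, which defines macrophages, reached at most 0.372 CPM.

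Compared per length, in the deposited TPM (transcripts scaled for gene length and library size), the ferritin chains led in all 19 mice. The median was 748 TPM for Fth1, 400.1 for Ftl1, 92.9 for Tfrc, 47.9 for Heph, 25.0 for Slc11a2, 4.78 for Epas1, 2.43 for Slc40a1, 2.17 for Cybrd1 and 0.27 for Hmox1. The order from Fth1 to Ftl1 to Tfrc and from Heph to Slc11a2 to Epas1 held in 19 of 19 mice, and Tfrc was above Heph in 18 of 19. Epas1 and Slc40a1 changed places with diet: Slc40a1 was the higher in 6 of 9 AL mice and in 0 of 10 fasted mice. Slc40a1 was above Cybrd1 in 5 of 5 AL Nt+/+, 3 of 4 AL Nt-/-, 0 of 5 fasted Nt+/+ and 3 of 5 fasted Nt-/- mice.

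**Figure D1:**
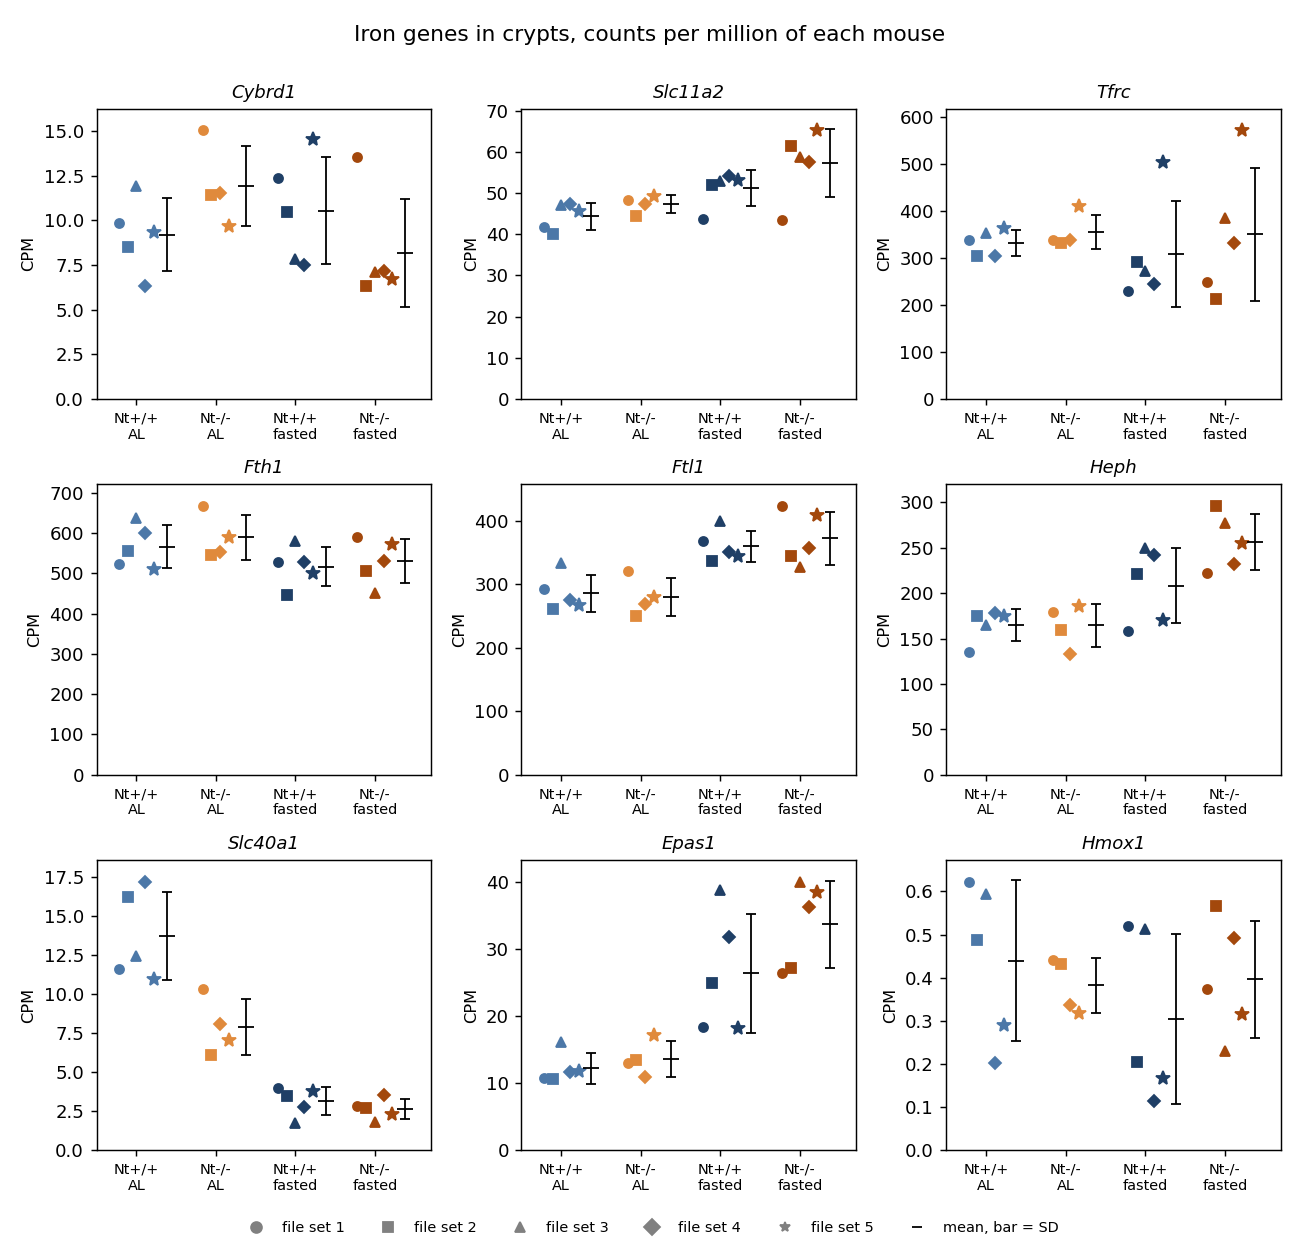
CPM of the 9 iron genes in each of the 19 mice, grouped by genotype and diet. Symbols give the set number carried by the deposited files, and black bars give the mean and SD of a group. Slc40a1 lies between 6.11 and 17.2 CPM in AL mice and between 1.75 and 3.99 CPM in fasted mice, and Epas1 lies higher in every fasted mouse (18.2 to 40.0 CPM) than in any AL mouse (10.6 to 17.2 CPM).

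With fasting, the widest change among the members was the fall of the exporter Slc40a1, 4.3-fold in Nt+/+ mice, beside which Epas1 and the ferritin light chain Ftl1 rose. In the quasi-likelihood test of edgeR, with p adjusted after Benjamini and Hochberg over the 17875 genes tested, 3 of the 8 tested members were called in Nt+/+ mice at an adjusted p under 0.05, where 21.6% of all tested genes were called (11.2% higher and 10.4% lower). In Nt-/- mice 5 of 8 were called, Slc40a1 lower and Epas1, Heph, Ftl1 and Slc11a2 higher, where 25.2% of all tested genes were called (12.5% higher and 12.6% lower). This fit leaves out the set number of the files, by which mice deviated together. With it as a replicate block, Heph and Slc11a2 were also called in Nt+/+ mice and Cybrd1 in Nt-/- mice. The counts of 3 and 5 are therefore not a difference between the genotypes. At an unadjusted p under 0.05 the members numbered 5 in Nt+/+ and 6 in Nt-/- mice, where 34.1% and 36.5% of all genes had such a p. In CPM, the AL and fasted mice did not overlap in 3 members in Nt+/+ (14.6% of all tested genes) and in 4 in Nt-/- mice (21.3%). The median log2 fold change of the 8 members was 0.20 in Nt+/+ and 0.13 in Nt-/- mice, beside −0.01 and −0.02 over all tested genes. In bulk RNA, fewer cells of a type and less RNA per cell cannot be told apart.

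Slc40a1 (ENSMUSG00000025993, chr1:45908068-45926523, reverse strand, GRCm38) encodes ferroportin, which carries iron from the enterocyte toward the blood. It stood at 11.6, 16.2, 12.5, 17.2 and 11.0 CPM in the AL Nt+/+ mice and at 3.99, 3.48, 1.75, 2.79 and 3.80 CPM in the fasted Nt+/+ mice. The Nt-/- mice had 10.3, 6.11, 8.13 and 7.08 CPM under AL feeding and 2.83, 2.72, 1.79, 3.55 and 2.32 CPM after fasting. In CPM, every fasted mouse lay below every AL mouse of either genotype. In TPM the diets overlapped in Nt-/- mice (AL from 2.43, fasted up to 2.77) and not in Nt+/+ mice (AL from 3.44, fasted up to 2.35). Mean TPM went from 5.19 to 1.56 in Nt+/+ and from 3.23 to 1.71 in Nt-/- mice. The log2 fold change with fasting was −2.12 (SE, 0.22; adjusted p = 1.54e-06, edgeR) in Nt+/+ mice, or 4.3-fold lower, and −1.61 (SE, 0.23; adjusted p = 5.95e-05, edgeR) in Nt-/- mice, or 3.04-fold lower. Among the 13070 tested genes with a mean log2 CPM of at least 1, only 21 in Nt+/+ and 45 in Nt-/- mice, Slc40a1 counted among them, fell as far or farther. The fasted values rest on 24 to 69 counts per mouse.

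The fall of Slc40a1 was seen in each of the 5 Nt+/+ and 4 Nt-/- pairs of mice whose files carry the same set number, by 1.51 to 2.76 and by 1.14 to 1.83 on the log2 scale, respectively. As the diets did not overlap in CPM, any pairing would show a fall, and the pairs add only its size. In AL mice the CPM of Nt-/- mice lay wholly below that of Nt+/+ mice, 7.91 ± 1.81 CPM (SD, n = 4) against 13.7 ± 2.82 CPM (SD, n = 5). In TPM these groups overlapped (Nt+/+ from 3.44, Nt-/- up to 3.89). The log2 difference between the genotypes was −0.79 (SE, 0.22; 95% interval, −1.24 to −0.33). It was not called by edgeR after adjustment over all genes (unadjusted p = 0.00172, adjusted p = 1), and groups did not overlap in 0.694% of all tested genes.

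Heph (ENSMUSG00000031209, chrX:96455359-96574485, forward strand) encodes the copper ferroxidase that oxidises iron as ferroportin releases it. It stood at 135, 175, 164, 178 and 174 CPM in AL Nt+/+ mice and at 159, 221, 249, 242 and 170 CPM in fasted Nt+/+ mice, and these groups overlapped. In Nt-/- mice it stood at 179, 160, 133 and 186 CPM under AL feeding and at 222, 296, 277, 232 and 255 CPM after fasting, with no overlap. In TPM the Nt-/- groups overlapped (AL up to 51.3, fasted from 47.2). The log2 fold change was 0.64 (SE, 0.14; adjusted p = 0.00191, edgeR) in Nt-/- mice and 0.33 (SE, 0.13; adjusted p = 0.0681, edgeR) in Nt+/+ mice, where it was not called. With the set number as a replicate block, Heph was called in Nt+/+ mice as well (0.33; adjusted p = 0.0478, edgeR). The exporter and its ferroxidase thus went opposite ways in fasted Nt-/- mice. That this held in all 4 of the pairs with the same set number follows from the lack of overlap in CPM. In Nt+/+ mice Heph rose in 4 of 5 such pairs and Slc40a1 fell in all 5.

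Epas1 (ENSMUSG00000024140, chr17:86753700-86833410, forward strand) encodes the hypoxia-inducible subunit that drives transcription of Slc11a2, Cybrd1 and Slc40a1 in the duodenum when iron is short. It stood at 10.8, 10.6, 16.2, 11.7 and 11.8 CPM in AL Nt+/+ mice and at 18.3, 24.9, 38.7, 31.7 and 18.2 CPM in fasted Nt+/+ mice. The values in Nt-/- mice were 13.0, 13.5, 10.9 and 17.2 CPM under AL feeding and 26.4, 27.1, 40.0, 36.2 and 38.5 CPM after fasting. In CPM, the diets did not overlap in either genotype. In TPM they overlapped in Nt+/+ mice (AL up to 4.82, fasted from 3.53) and not in Nt-/- mice (AL up to 4.78, fasted from 5.69). The rise was 2.17-fold in Nt+/+ mice (log2 fold change, 1.12; SE, 0.20; adjusted p = 0.000505, edgeR) and 2.47-fold in Nt-/- mice (1.31; SE, 0.21; adjusted p = 0.000193, edgeR). Epas1 rose in all 9 pairs with the same set number while Slc40a1 fell in all 9. Both counts follow from the lack of overlap in CPM and add no further evidence.

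Of the uptake genes, 1 was called, in Nt-/- mice alone and near the threshold. This was Slc11a2 (ENSMUSG00000023030, chr15:100387898-100425072, reverse strand), the ferrous iron carrier of the apical membrane. It stood at 41.7, 40.2, 47.0, 47.2 and 45.7 CPM in AL Nt+/+ mice and at 43.7, 52.1, 52.9, 54.2 and 53.2 CPM in fasted ones. Its level in Nt-/- mice was 48.4, 44.4, 47.4 and 49.3 CPM under AL feeding and 43.4, 61.4, 58.8, 57.4 and 65.3 CPM after fasting. In both fasted groups the mouse of set 1 was the lowest, within the AL range in Nt+/+ and below all AL mice in Nt-/- mice, and the other fasted mice lay above the AL mice of their genotype. The log2 fold change was 0.27 in Nt-/- mice (SE, 0.10; adjusted p = 0.0436, edgeR) and 0.21 in Nt+/+ mice (SE, 0.09; adjusted p = 0.108, edgeR). Both values lie near the threshold: with the set number as a replicate block Slc11a2 was called in Nt+/+ mice (0.21; adjusted p = 0.0469, edgeR), and leaving out any of 9 mice in turn ended the call in Nt-/- mice (0.22 to 0.29; adjusted p = 0.0522 to 0.119, edgeR).

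Cybrd1 (ENSMUSG00000027015, chr2:71117923-71142926, forward strand), the duodenal ferric reductase, was among the lowest members. It stood at 9.87, 8.49, 11.9, 6.34 and 9.37 CPM in AL Nt+/+ mice and at 12.4, 10.5, 7.81, 7.53 and 14.5 CPM in fasted Nt+/+ mice. In Nt-/- mice it stood at 15.1, 11.4, 11.5 and 9.68 CPM under AL feeding and at 13.6, 6.35, 7.10, 7.19 and 6.70 CPM after fasting, so that 4 of 5 fasted mice lay below all AL mice and the mouse of set 1 lay among them. The log2 fold change was 0.20 in Nt+/+ mice (SE, 0.22; 95% interval, −0.27 to 0.67; adjusted p = 0.572, edgeR) and −0.53 in Nt-/- mice (SE, 0.24; 95% interval, −1.03 to −0.04; adjusted p = 0.107, edgeR). With the set number as a replicate block Cybrd1 was called lower in fasted Nt-/- mice (−0.56; adjusted p = 0.046, edgeR), and so it was without fasted Nt-/- replicate 1 (−0.80; adjusted p = 0.00873, edgeR).

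Tfrc (ENSMUSG00000022797, chr16:32608920-32632794, forward strand), the transferrin receptor, was not called in either genotype. It stood at 337, 303, 354, 303 and 363 CPM in AL Nt+/+ mice and at 231, 291, 272, 244 and 505 CPM in fasted Nt+/+ mice. It stood in Nt-/- mice at 339, 332, 339 and 410.1 CPM under AL feeding and at 249, 213, 385, 332 and 572 CPM after fasting. The mouse of set 5 was the highest in each of the 4 groups, and the spread was wider after fasting (SD, 112 and 141 CPM, n = 5 each) than before (SD, 28.0 CPM, n = 5, and 36.9 CPM, n = 4). The 95% interval of the log2 fold change ran from −0.57 to 0.36 in Nt+/+ and from −0.51 to 0.47 in Nt-/- mice. Without set 5 the change averaged over the genotypes was −0.26 (SE, 0.11; adjusted p = 0.0763, edgeR) in place of −0.06 (SE, 0.16; adjusted p = 0.794, edgeR). What the set numbers stand for is not given in the labels.

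Of the ferritin chains, the light chain rose with fasting and the heavy chain was not called. The light chain Ftl1 (ENSMUSG00000050708, chr7:45457944-45459884, reverse strand), which helps the iron core to form, stood at 293, 260.5, 334, 275 and 268 CPM in AL Nt+/+ mice and at 368, 336, 399, 352 and 344 CPM in fasted Nt+/+ mice. In Nt-/- mice it stood at 322, 251, 269.6 and 280.2 CPM under AL feeding and at 424, 345, 327, 358 and 409.6 CPM after fasting. In CPM, the diets did not overlap in either genotype, so that a rise of Ftl1 in all 9 pairs with the same set number was given in advance. In TPM the diets overlapped in Nt+/+ mice (AL up to 400.1, fasted from 384.6) and not in Nt-/- mice (AL up to 399.2, fasted from 421). The rise was 1.26-fold in Nt+/+ mice (log2 fold change, 0.33; SE, 0.09; adjusted p = 0.0126, edgeR) and 1.33-fold in Nt-/- mice (0.41; SE, 0.10; adjusted p = 0.00411, edgeR).

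The heavy chain Fth1 (ENSMUSG00000024661, chr19:9980598-9985098, forward strand), which carries the ferroxidase site of ferritin, was not called. It stood at 524, 555, 638, 600.4 and 511 CPM in AL Nt+/+ mice, at 528, 446, 580.4, 527 and 499.9 CPM in fasted Nt+/+ mice, at 667, 545, 554 and 589 CPM in AL Nt-/- mice and at 590.2, 507, 451, 529.5 and 573 CPM in fasted Nt-/- mice. The diets overlapped in both genotypes. The log2 fold change was −0.13 (SE, 0.09; 95% interval, −0.33 to 0.06; adjusted p = 0.345, edgeR) in Nt+/+ mice and −0.15 (SE, 0.10; 95% interval, −0.36 to 0.06; adjusted p = 0.291, edgeR) in Nt-/- mice. The mouse with the most Fth1 had the most Ftl1 in each of the 4 groups.

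Set against each other in TPM, the chains gave 1.88 to 2.38 times as much Fth1 as Ftl1 in AL Nt+/+ mice and 2.17 to 2.30 times as much in AL Nt-/- mice. After fasting the ratio was 1.37 to 1.64 in Nt+/+ and 1.44 to 1.61 in Nt-/- mice, below every AL mouse. The ratio was formed after the values of both genes had been seen, and it was not tested. Near-identical copies of the ferritin genes can share their reads: the copy Ftl1-ps1 held 2.53% to 4.27% as many counts as Ftl1, and 4 other copies together held 3 to 24 counts per mouse.

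Hmox1 (ENSMUSG00000005413, chr8:75093621-75100589, forward strand), which frees iron from haem, had 2 to 15 counts per mouse. It stood at 0.203 to 0.623 CPM in AL Nt+/+, 0.319 to 0.442 in AL Nt-/-, 0.114 to 0.521 in fasted Nt+/+ and 0.231 to 0.567 CPM in fasted Nt-/- mice, and all groups overlapped. A change with diet or genotype was not detectable at this depth.

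**Figure D2:**
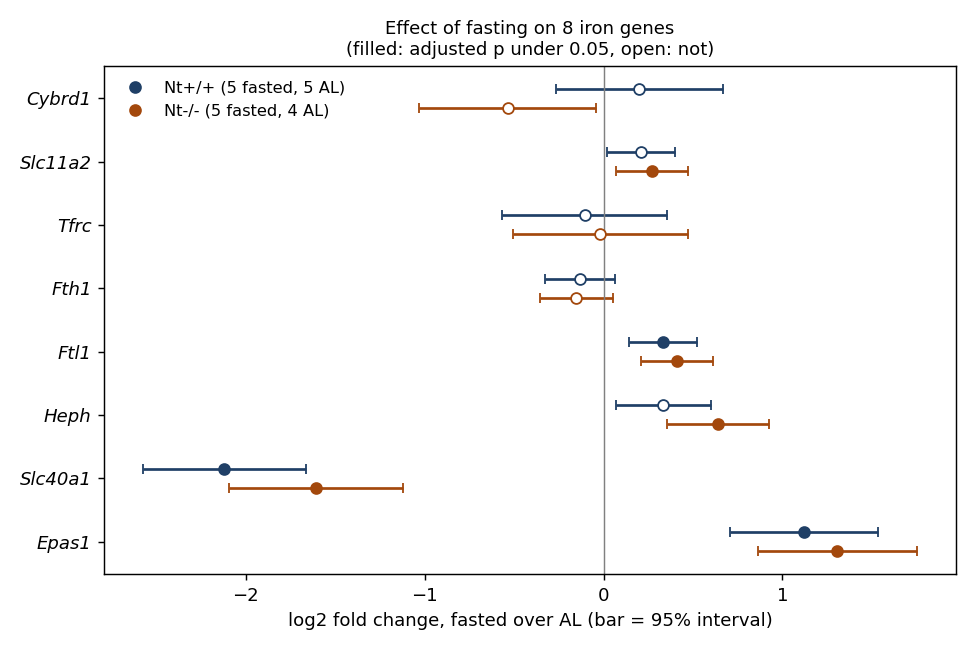
Log2 fold change of fasted over AL mice for the 8 tested iron genes, in Nt+/+ (blue) and Nt-/- mice (orange), with 95% intervals from the edgeR fit and filled points where the adjusted p is under 0.05. Slc40a1 is the lowest at −2.12 and −1.61, Epas1 the highest at 1.12 and 1.31, and the intervals of the genotypes overlap for each gene.

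Averaged over the genotypes, the same 5 members were called as in Nt-/- mice alone, where 39.4% of all tested genes were called (19.2% higher and 20.2% lower) and 47.4% had an unadjusted p under 0.05: Slc40a1 at −1.86 (SE, 0.16), Epas1 at 1.21 (SE, 0.15), Heph at 0.49 (SE, 0.09), Ftl1 at 0.37 (SE, 0.07) and Slc11a2 at 0.24 (SE, 0.07). This comparison uses the mice of both single-genotype comparisons and is not separate evidence.

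Loss of neurotensin called no member. Under AL feeding 0 of 8 members were called by edgeR and 0 by DESeq2, with 1 (Slc40a1) at an unadjusted p under 0.05, where 0.00559% of all genes were called (1 gene, Nts) and 1.67% had such a p. After fasting 0 of 8 were called by edgeR and 0 by DESeq2 (which gave Slc40a1 no adjusted p), with 1 (Heph, log2 difference 0.30; 95% interval, 0.03 to 0.57; unadjusted p = 0.0292, adjusted p = 0.47, edgeR) at an unadjusted p under 0.05, where again 0.00559% were called and 9.14% had such a p. The genotypes overlapped in all 8 members after fasting, and did not overlap in 1.56% of all tested genes. The intervals under AL feeding reached from −0.28 to 0.60 for Epas1, −0.11 to 0.87 for Cybrd1 and −0.39 to 0.59 for Tfrc, and were narrower for Fth1 (−0.15 to 0.26), Ftl1 (−0.23 to 0.17) and Slc11a2 (−0.10 to 0.29).

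The response to fasting itself was compared between the genotypes, with the effect in Nt-/- mice less the effect in Nt+/+ mice. No member was called by edgeR or DESeq2 (0 of 8, and 0% of all genes), and 1, Cybrd1, had an unadjusted p under 0.05, which 2.71% of all genes had. Cybrd1 differed by −0.73 on the log2 scale (SE, 0.33; 95% interval, −1.41 to −0.05; unadjusted p = 0.0356, adjusted p = 0.9998, edgeR), having gone down in 4 of 4 Nt-/- pairs and up in 4 of 5 Nt+/+ pairs. For Slc40a1 the difference was 0.51 (95% interval, −0.15 to 1.18) and for Heph 0.31 (95% interval, −0.08 to 0.70). Heph and Slc11a2 were called in Nt-/- mice alone only in the fit without the set number, since both were called in Nt+/+ mice as well with it as a replicate block, and they are not shown to respond differently in the genotypes.

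The crypts of fasted mice also carried more mRNA of marker genes of mature enterocytes, the cells in which most iron transport takes place. Of 8 such markers (Alpi, Apoa4, Apoa1, Ada, Nt5e, Enpep, Sis, Lct), 6 rose with fasting in Nt+/+ and 8 in Nt-/- mice, where 11.2% and 12.5% of all tested genes were called higher. Their summed level ran from 3107 to 6448 CPM in AL Nt+/+, 4742 to 7063 in AL Nt-/-, 5817 to 12365 in fasted Nt+/+ and 10924 to 14999 CPM in fasted Nt-/- mice. Of 4 markers of crypt stem cells, Olfm4 fell in Nt+/+ (by 0.63 on the log2 scale; adjusted p = 0.0322, edgeR) and Olfm4 and Smoc2 fell in Nt-/- mice (by 0.92 and by 0.49; adjusted p = 0.00409 and 0.00906, edgeR), while Lgr5 (0.29 and −0.02) and Ascl2 (0.63 and 0.12) were not called in either. Of 4 goblet cell markers, Clca1 fell in both genotypes (by 1.51 and by 2.22) and Muc2 in Nt-/- mice (by 0.83). The others, Tff3 (0.13 and 0.03) and Fcgbp (0.17 and 0.16), were not called in either. Of 4 T cell markers, Gzma alone was called, higher in Nt-/- mice (0.97; adjusted p = 0.0356, edgeR). The Paneth cell markers Lyz1, Mmp7, Ang4 and Defa24 were not called in either genotype. Over all tested genes 10.4% in Nt+/+ and 12.6% in Nt-/- mice were called lower. The fasted Nt+/+ mice with the least enterocyte marker, replicate 1 (5817 CPM) and replicate 5 (6976 CPM), were also those with the least Heph (159 and 170 CPM) and the least Epas1 (18.3 and 18.2 CPM) of their group. At a marker level near that of replicate 1, AL Nt+/+ replicates 2 and 5 (5545 and 6124 CPM) had less Epas1 (10.6 and 11.8 CPM). Their Heph was not lower (175 and 174 CPM). AL Nt+/+ replicate 3, at 5251 CPM of marker, had 16.2 CPM of Epas1. Nearest in marker level to fasted Nt+/+ replicate 5 was AL Nt-/- replicate 4 (7063 CPM), with 17.2 CPM of Epas1. The next nearest, AL Nt-/- replicate 1 (6650.5 CPM), had 13.0 CPM of Epas1.

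When the log2 of that marker sum was entered as a covariate, an alternative added after the data had been seen, the members divided. Slc40a1 kept its fall and its call (−1.99, SE 0.28, adjusted p = 0.000147 in Nt+/+ and −1.41, SE 0.37, adjusted p = 0.0331 in Nt-/- mice, edgeR). Heph went to −0.14 (SE, 0.08; adjusted p = 0.302) in Nt+/+ and −0.03 (SE, 0.10; adjusted p = 0.908) in Nt-/- mice, and Slc11a2 to 0.02 and −0.01. Epas1 went to 0.54 in both genotypes (adjusted p = 0.111 and 0.25) and Ftl1 stayed at 0.34 and 0.42 (adjusted p = 0.0827 and 0.124), and neither was called. With the covariate 1839 genes were called in Nt+/+ and 818 in Nt-/- mice, in place of 3862 and 4499. Diet and marker level moved together in these mice, so that the covariate takes part of the diet effect with it, and the part of cell makeup in the results was not tested further.

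**Figure D3:**
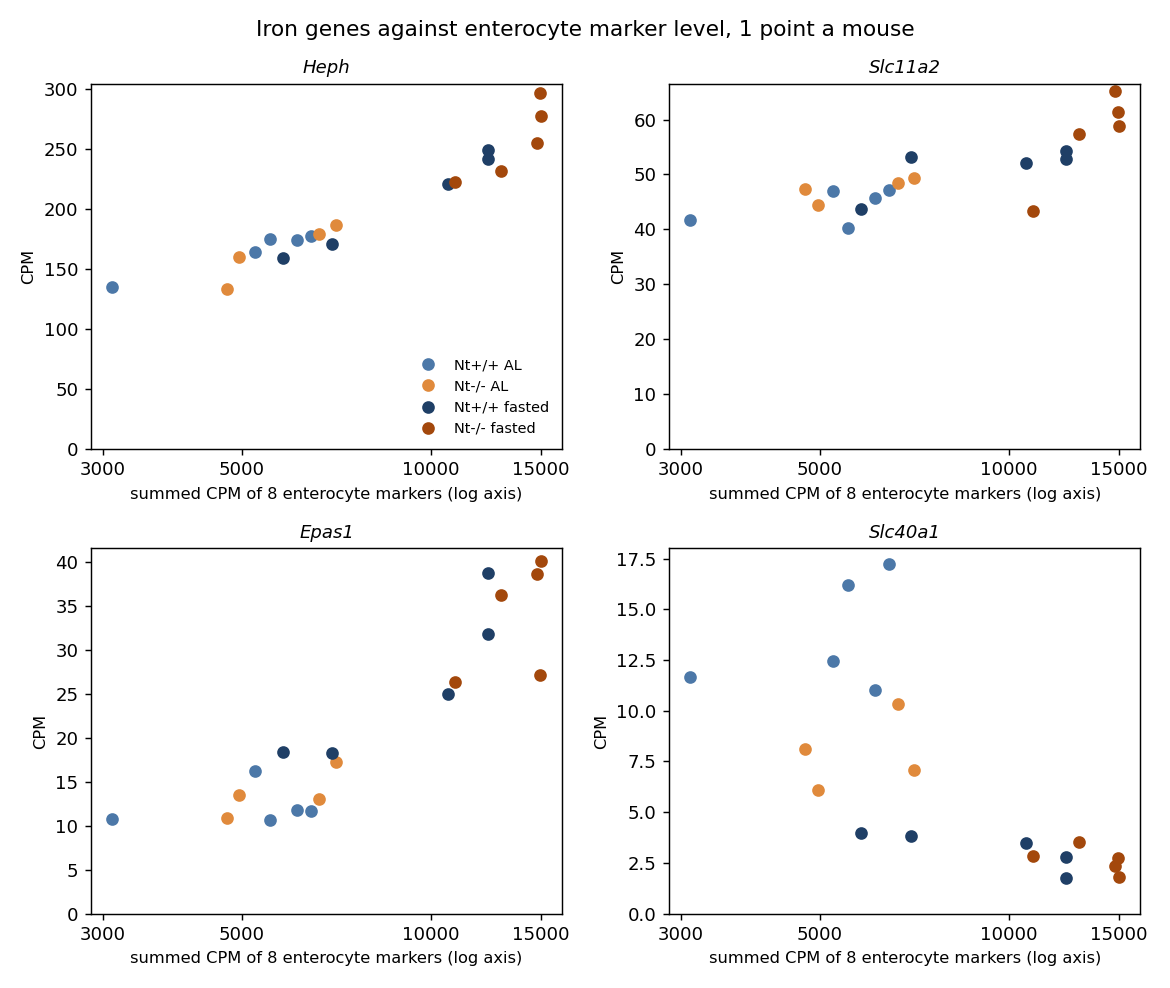
CPM of Heph, Slc11a2, Epas1 and Slc40a1 against the summed CPM of 8 enterocyte markers (log axis), 1 point per mouse, coloured by group. Heph lies along 1 band from 133 to 296 CPM across all groups, whereas the fasted Nt+/+ mice at 5817 and 6976 CPM of marker have 3.99 and 3.80 CPM of Slc40a1, below the AL mice nearest to them in marker level.

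The genes whose log2 CPM followed a member most closely over the 19 mice, among 13070 genes, are given as a description. Heph was followed by Mpp1, Slc46a3 and Mgam (Pearson r, 0.98, 0.98 and 0.97), of which Mgam encodes a brush border glucosidase. Slc40a1 was followed by Nup160, Zdhhc2 and Cip2a (r, 0.94, 0.93 and 0.93), of which Nup160 encodes a nuclear pore protein. Epas1 was followed by Cers2, Tmem41a and Arl4a (r, 0.96 for each), Ftl1 by Mpdu1, Pex14 and Fau (r, 0.95, 0.95 and 0.93) and Slc11a2 by Slc35d2, Lonp2 and Lpgat1 (r, 0.90, 0.88 and 0.88). The mice fall into diet groups, which all of these correlations share.

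The wider iron machinery was taken from 6 lists of 87 genes, of which 80 were tested. In Nt+/+ mice 16 rose and 9 fell with fasting (21.6% of all genes were called), and in Nt-/- mice 17 rose and 8 fell (25.2% of all genes). Their median log2 fold change was 0.06 in Nt+/+ and 0.08 in Nt-/- mice, against −0.01 and −0.02 over all tested genes. Called in both genotypes were 12 higher and 4 lower, a count for which no share over all tested genes is given. Between the genotypes edgeR called 0 of 80, with 2 at an unadjusted p under 0.05 in AL and 12 in fasted mice, and DESeq2 called 0 of 80 in AL mice. In fasted mice DESeq2 gave an adjusted p to 64 of them and called 2, Aco1 and Ndrg1, where it called 101 genes in all. The response to fasting differed between the genotypes in 0 of 80 by edgeR (4 at an unadjusted p under 0.05) and in 0 by DESeq2.

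The list of other iron and haem carriers and reductases had the most calls, with 8 higher and 2 lower of 17 tested in Nt+/+ and 6 higher and 2 lower in Nt-/- mice. Over all tested genes 21.6% and 25.2% were called, respectively. Flvcr2, a relative of Flvcr1, which has been described as a haem exporter and a choline carrier, rose by 1.99 (SE, 0.23; adjusted p = 5.29e-06, edgeR) in Nt+/+ and 2.34 (SE, 0.25; adjusted p = 2.37e-06, edgeR) in Nt-/- mice on the log2 scale. Flvcr1 itself rose by 0.83 and 1.36, the efflux pump Abcg2, which also carries haem and porphyrins, by 0.42 and 0.66, and the zinc and iron importer Slc39a14 by 0.51 and 0.48, in Nt+/+ and Nt-/- mice, respectively. Outside the rule for naming genes, and chosen after their values were seen, the haem and folate carrier Slc46a1 fell by 1.12 in Nt+/+ mice (adjusted p = 0.00409, edgeR; −0.70, adjusted p = 0.0641 in Nt-/- mice), and the haem carrier Slc48a1 rose by 0.47 and 0.44 (adjusted p = 0.0137 and 0.0261, edgeR).

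Of the genes of iron sensing, 2 of 13 rose and none fell in each genotype, where 21.6% (Nt+/+) and 25.2% (Nt-/-) of all tested genes were called. Aco1, the iron regulatory protein that doubles as cytosolic aconitase, rose by 0.55 (SE, 0.08; adjusted p = 4.01e-05, edgeR) in Nt+/+ and 0.77 (SE, 0.08; adjusted p = 2.12e-06, edgeR) in Nt-/- mice. Fbxl5, which marks the other iron regulatory protein for decay, rose by 0.65 in Nt-/- mice (adjusted p = 0.00349, edgeR; 0.31, adjusted p = 0.124 in Nt+/+ mice). Hfe, a partner of the transferrin receptor, rose by 0.63 in Nt+/+ mice (adjusted p = 0.018, edgeR; 0.47, adjusted p = 0.0824 in Nt-/- mice).

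Among iron chaperones and genes of ferritin turnover, 3 of 6 fell and none rose in Nt+/+ mice (21.6% of all tested genes were called), and 1 rose and 2 fell in Nt-/- mice (25.2%). Pcbp1, which delivers iron to ferritin, fell by 0.28 and by 0.34 in Nt+/+ and Nt-/- mice (adjusted p = 0.0362 and 0.017, edgeR). Its relative Pcbp2 rose by 0.27 in Nt-/- mice (adjusted p = 0.0267, edgeR). Ncoa4, the receptor that takes ferritin to the lysosome, fell by 0.23 in Nt+/+ mice (adjusted p = 0.0256, edgeR) and was at 0.04 in Nt-/- mice, and Herc2, the ligase that degrades Ncoa4, fell by 0.24 in Nt+/+ mice (adjusted p = 0.0406, edgeR).

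Haem synthesis gave 2 higher and 1 lower of 12 in Nt+/+ and 1 and 1 in Nt-/- mice, where 21.6% and 25.2% of all tested genes were called. Fech, which places iron into the finished ring, rose by 0.24 and 0.36 (adjusted p = 0.0082 and 0.000542, edgeR), Uros, an earlier step, fell by 0.53 and by 0.87 (adjusted p = 0.00444 and 8.96e-05, edgeR), and Alad rose by 0.26 in Nt+/+ mice (adjusted p = 0.0205, edgeR). Iron–sulfur cluster assembly gave 1 higher and 1 lower of 16 in Nt+/+ and 2 higher and 1 lower in Nt-/- mice, beside the same shares of all genes. Fdx1, a mitochondrial ferredoxin, rose by 0.34 and 0.50 (adjusted p = 0.00551 and 0.000385, edgeR), while in Nt-/- mice Hscb rose by 0.42 and Isca2 fell by 0.34.

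Targets of the hypoxia-inducible factors moved both ways, with 3 higher and 2 lower of 16 in Nt+/+ (21.6% of all tested genes were called) and 5 higher and 2 lower in Nt-/- mice (25.2%). Ndrg1 rose by 1.71 (SE, 0.12; adjusted p = 9.79e-09, edgeR) and 1.84 (SE, 0.13; adjusted p = 9.61e-09, edgeR), Bnip3, a receptor of mitophagy, by 1.17 and 1.36, and the glycolytic regulator Pfkfb4 by 0.63 and 0.87 in Nt+/+ and Nt-/- mice. P4ha1, a collagen prolyl hydroxylase, fell by 0.85 and by 1.15 (adjusted p = 0.0155 and 0.00296, edgeR), and Ankrd37 fell by 1.13 in Nt+/+ mice (adjusted p = 0.00948, edgeR; −0.66, adjusted p = 0.126 in Nt-/- mice), both named after their values were seen. Car9, a carbonic anhydrase, fell by 0.48 (adjusted p = 0.000338, edgeR) in Nt-/- mice and was at −0.20 (adjusted p = 0.0757) in Nt+/+ mice. The iron genes that Epas1 is known to drive, Slc11a2, Cybrd1 and Slc40a1, gave 0.21, 0.20 and −2.12 in Nt+/+ and 0.27, −0.53 and −1.61 in Nt-/- mice. Of these, only Slc40a1 was called in both genotypes, and it was lower. The activity of the Epas1 protein was not tested.

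**Figure D4:**
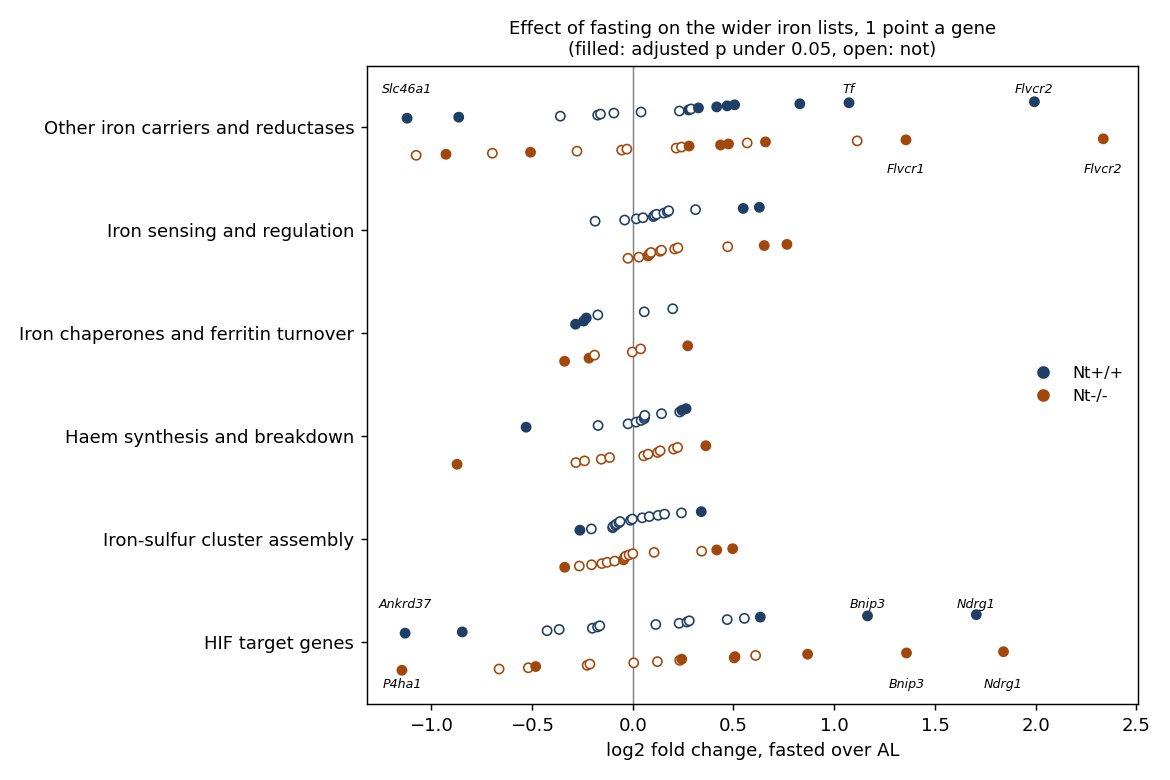
Log2 fold change of fasted over AL mice for the 80 tested genes of the 6 wider iron lists, 1 point per gene and genotype (Nt+/+ blue, Nt-/- orange), filled where the adjusted p is under 0.05 and named where a filled point lies beyond 1 on either side. Flvcr2 at 1.99 and 2.34 and Ndrg1 at 1.71 and 1.84 lie farthest to the right.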

How the data were processed

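RNA was sequenced from crypts of 19 mice. The authors depleted ribosomal RNA, trimmed single-end reads with Trimmomatic 0.39 and used RSEM with Ensembl transcripts of GRCm38; the RSEM version and strand setting are not given in the sources used here. They deposited RSEM's expected count per gene, raw values in which multi-mapping reads are shared out, and TPM. The TPM were used here to compare levels between genes and for the overlaps given in TPM, and were not scaled by TMM. Expected counts were rounded. The 17875 genes passing filterByExpr were fitted with 1 coefficient per group (15 residual degrees of freedom) by edgeR 4.0.16 (R 4.3.3) with TMM, and its quasi-likelihood test was called at an adjusted p under 0.05 (Benjamini-Hochberg over all tested genes). CPM use TMM library sizes. SEs are the absolute log2 fold change over the square root of F. Mice of a group differed by more than sampling noise (chi-square per gene, 15.3 to 219 over 36 pairs). The code was tested on simulated data.

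The members and lists were chosen with earlier results of these data known. The text names every member; up to 4 called genes with the smallest p from each list; the 3 genes most correlated with each called member; ferritin copies; and Nts. A gene that this rule names is not reported here. Alternatives were DESeq2 1.42.0, upper quartile normalization, other filters, the likelihood ratio test, sex, replicate blocks, the other label of the mouse with conflicting labels, only the groups compared, and each mouse left out. Same-numbered mice deviated together by the set number of the files (r over 0.1 in 24 of 27 pairs, and in all pairs of each comparison made), less so by title number (19 of 27). Hairpins were matched by script to UTRs of GENCODE M21 transcripts (GRCm38).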

Additional observations from a re-analysis of the deposited data

Results flagged for a closer look

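Of 36 groups of mice examined (9 genes in 4 groups), 5 held a mouse whose gap to its nearest neighbour took more of the group's range than Dixon's 95% critical value allows, where chance gives about 1 in 20 groups. Tfrc gave 2 of them, both mice of set 5: AL Nt-/- replicate 4 at 410.1 CPM (next, 339 CPM) and fasted Nt+/+ replicate 5 at 505 CPM (next, 291 CPM). Another 2 were fasted mice of set 1, replicate 1 of fasted Nt+/+ with Slc11a2 at 43.7 CPM (next, 52.1 CPM) and replicate 1 of fasted Nt-/- with Cybrd1 at 13.6 CPM (next, 7.19 CPM). The remaining mouse was AL Nt+/+ replicate 3 with Epas1 at 16.2 CPM (next, 11.8 CPM). Sets 1 and 5 thus gave 4 of the 5 values, and the cause was not tested.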

How the results depend on the processing

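The 13 calls of members gave 395 recomputed values, of which 372 kept direction and call. With the enterocyte marker level as a covariate (added after seeing the data) the members called numbered 1 in Nt+/+, 1 in Nt-/- and 2 on average over the genotypes, in place of 3, 5 and 5. Heph turned to −0.14, −0.029 and −0.085, Slc11a2 to −0.010 in Nt-/- mice, Cybrd1 to 0.19 in Nt-/- mice, 0.44 on average and 0.0017 between fasted genotypes, and Tfrc to 0.042 in Nt-/- mice. With the set number of the files as replicate block 5 members were called in Nt+/+ mice, and the block changed no other call than those given for Slc11a2, Heph and Cybrd1. With the title number as replicate block Cybrd1 alone changed its call (−0.59; adjusted p = 0.0249, edgeR). The count with each mouse left out was 3 to 5 in Nt+/+ (5 without fasted replicate 1) and 4 to 6 in Nt-/- mice. No share of all genes called is given for the fits with a block or with a mouse left out. Their counts of members are therefore not a result about the members. Slc11a2 in Nt-/- mice also lost its call under upper quartile normalization, without a filter, with sex, with the other label and with only the groups compared (adjusted p = 0.0525 to 0.114, edgeR), and in Nt+/+ mice it was called without replicate 1 of fasted Nt+/+ or of fasted Nt-/- mice (adjusted p = 0.0438 and 0.0351, edgeR). Heph in Nt+/+ mice was called by DESeq2 (adjusted p = 0.0459) and without fasted replicate 1 or 5 (adjusted p = 0.0196 and 0.0337, edgeR). The cause of these changes was not tested.

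The other changes of sign were of values not called. Tfrc in Nt-/- mice was at 0.00013 by DESeq2 and 0.084 with the other label, and −0.27 to 0.12 with each mouse left out. On average it was −0.19 to 0.0051 with each mouse left out and 0.043 without set 1, and between fasted genotypes −0.064 to 0.43. Heph between AL genotypes was at 0.0040 without a filter, 0.038 with the set number as block and 0.0065 with sex, and −0.072 to 0.082 with each mouse left out. Fth1 and Ftl1 with each mouse left out ran from −0.0081 to 0.10 and −0.10 to 0.035 between AL genotypes, and from −0.0036 to 0.091 and −3.1e-05 to 0.094 between fasted genotypes. In the difference of the responses to fasting, Tfrc was at −0.059 with the title block and −0.15 with sex, and −0.16 to 0.34 with each mouse left out, Fth1 was −0.066 to 0.047 with each mouse left out, Epas1 was at −0.037 with the other label, and, with the enterocyte covariate, Slc11a2 was at −0.028 and Epas1 at −0.00099.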

Other observations

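Of the 87 genes on the wider lists, 7 were too low to test, and most of these belong to the hepcidin axis. Hamp, which encodes the liver hormone hepcidin that brings about the degradation of ferroportin, and its relative Hamp2 reached at most 4 and 6 counts in any mouse, Tmprss6 at most 7, and Hjv was at 0 in all 19 mice. Tfr2 and Steap4 reached at most 6 and 8 counts and Ftmt, the mitochondrial ferritin, was at 0.

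Globin and red cell markers summed to 2.86 to 29.1 CPM. Of the 4 tested, 0 were called with fasting in either genotype by edgeR, with 0 at an unadjusted p under 0.05, and their median log2 fold change was −0.48 in Nt+/+ and −0.73 in Nt-/- mice.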
